A study of Mus musculus with 6 samples.

Results

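The genes described here make the folding and quality-control machinery of the endoplasmic reticulum (ER), followed in the mouse Lewis lung carcinoma line LLC after inhibition of the RNA methyltransferase METTL3. The members are 36 listed gene symbols, all of them rows of the deposited expression table of 55367 rows. They were divided by role into 25 folding genes (BiP, GRP94 and their cofactors, the disulfide and proline enzymes, and the lectin cycle) and 11 genes of ER-associated degradation (ERAD). Per the labels, 3 samples of wild type genotype received 5 µM STM2457, a small-molecule inhibitor of METTL3, for 46 h, and 3 received the solvent DMSO for the same 46 h, all in medium with serum. LLC is a single line, and the labels do not say whether the 3 samples of a group came from separate cultures, so the p-values reflect how far these samples vary, and that variation may be technical.

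Proteins that enter the ER are held by chaperones, joined by disulfide bonds and checked for their sugar chains before they leave for the Golgi. The Hsp70-type chaperone BiP, made from Hspa5, works in cycles set by J-domain cochaperones, which bring it substrates, and by exchange factors, which release them. Protein disulfide isomerases pass electrons to the ERO1 oxidases, calnexin and calreticulin hold glycoproteins in a cycle driven by the glucosyltransferase UGGT1, and proteins that fail are marked by EDEM enzymes and sent back to the cytosol through the SEL1L and HRD1 ubiquitin ligase. The sensors of the unfolded protein response, IRE1, PERK and ATF6, raise many of these genes together when misfolded proteins build up, and secretory cells, plasma cells above all, keep them high.

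Of the 35 members that had enough reads to be tested, 17 rose and 5 fell with STM2457, and 13 did not pass (limma adjusted p under 0.05 on the deposited log2 values). Over all 12618 tested genes 30.7% were called higher and 25.7% were called lower, against 48.6% and 14.3% of the tested members, a description with no test of the difference. The median fold of the members was 1.08 in recovered reads, against 1.01 over all tested genes. The all-gene split depended on scaling: 3868 genes were higher and 3240 lower as deposited, 2819 and 4814 after centring each library on its upper quartile, and 2941 and 4621 after centring on its median. Under both centrings 15 members were higher and 6 lower.

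Most of the calls fell among the folding genes, which also made up most of the tested members. Of the 25 folding genes 16 rose (64%) and 3 fell (12%), with a median fold of 1.19. Of the 10 tested degradation genes 1 rose (10%), 2 fell (20%) and 7 did not pass, with a median fold of 1.02. Over all tested genes 30.7% were called higher and 25.7% lower, and the differences between these shares were not tested. Under both centrings the folding counts were 14 higher and 4 lower, and the degradation counts stayed at 1 and 2. All 3 STM2457 libraries lay above all 3 DMSO libraries for 18 members, namely the 17 that rose and Dnajc10, and below them for 5, against 33.4% and 28.4% of all tested genes in those directions. The largest change in each role class was a fall: Ero1l among the folding genes and Herpud1 among the degradation genes. Because whole cultures were sequenced, fewer cells with a transcript and less of it per cell cannot be told apart.

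**Figure D1:**
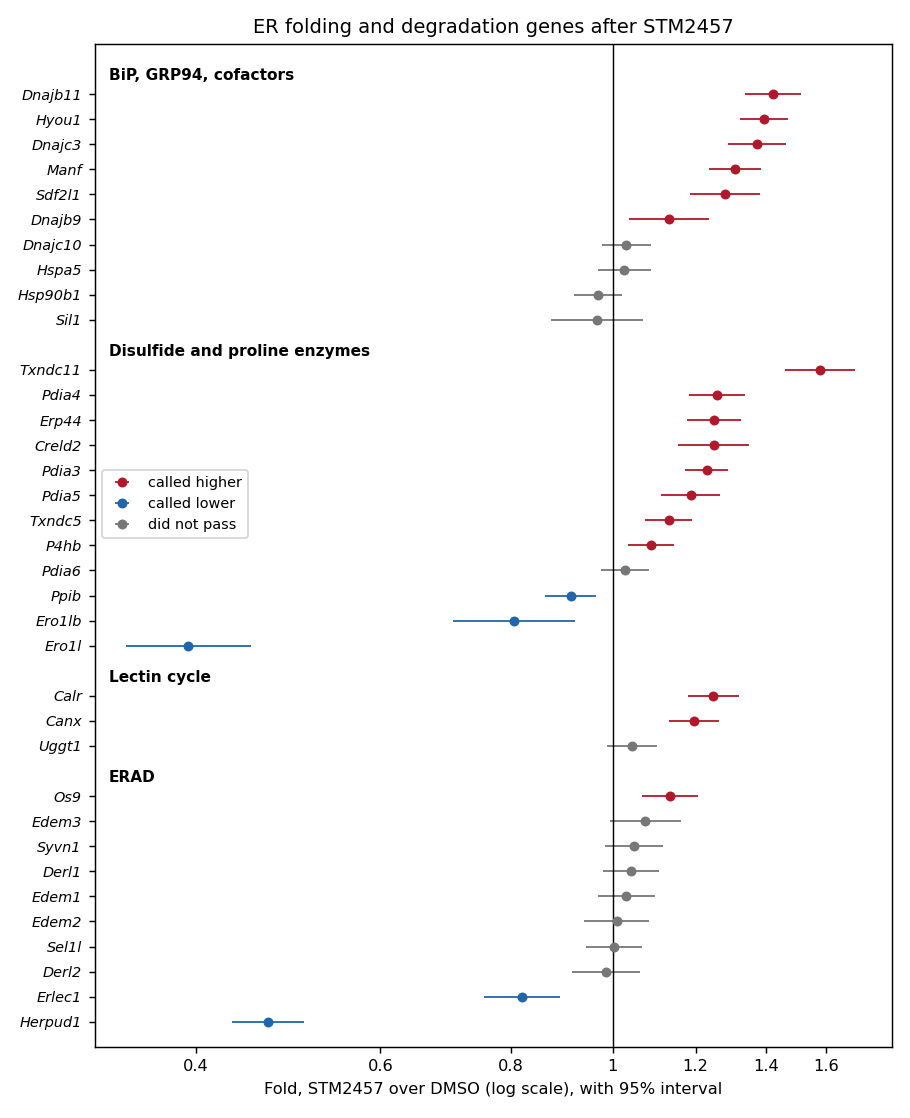
Fold of STM2457 over DMSO in recovered reads (x axis, log scale) for the 35 tested members (y axis, grouped by role), as points with 95% intervals from limma-voom, coloured by the limma call. Most folding genes sit right of 1, up to 1.58 for Txndc11, Ero1l (0.393) and Herpud1 (0.468) lie far to the left, and 7 of 10 degradation genes have intervals that cross 1.

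The unfolded protein response is known to act on many such genes through a promoter sequence, the ER stress response element, which binds NF-Y at CCAAT and ATF6 or XBP1 at CCACG. The RefSeq table of the GRCm38.p6 build holds promoters, from 250 bases before to 50 after each gene's start, for 31 of the 36 members, all but Hyou1, Sil1, Manf, Derl1 and Erlec1. CCAAT, then any 9 bases, then CCACG was searched on both strands. It occurred in 10 of 31 members (32.3%) and in 37 of 27025 genes with a promoter (0.137%), with 8 of 22 folding genes (36.4%) and 2 of 9 degradation genes (22.2%). CCACG alone, which is also the last 5 letters of that element, occurred in 28 of 31 members (90.3%) and in 35.5% of all genes. The windows below, from the 9 tested members with the element, are shown because genes that share it differed in how they responded. Each runs 5′ to 3′ on the strand that reads CCAAT before CCACG, 59 bases with 20 on either side of the element, and the capitals mark CCAAT and CCACG.
Dnajc3, chr14:118937807-118937865, plus strand, higher with STM2457: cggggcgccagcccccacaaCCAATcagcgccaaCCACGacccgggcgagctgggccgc
Creld2, chr15:88819500-88819558, minus strand, higher: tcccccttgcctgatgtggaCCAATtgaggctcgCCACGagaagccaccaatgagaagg
Calr, chr8:84847055-84847113, plus strand, higher: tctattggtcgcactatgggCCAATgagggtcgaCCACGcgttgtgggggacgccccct
Canx, chr11:50325780-50325838, minus strand, higher: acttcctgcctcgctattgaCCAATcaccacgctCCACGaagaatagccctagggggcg
Hspa5, chr2:34772005-34772063, plus strand, did not pass: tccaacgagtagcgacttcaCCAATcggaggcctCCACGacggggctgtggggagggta
Hsp90b1, element nearer the start, chr10:86705513-86705571, plus strand, did not pass: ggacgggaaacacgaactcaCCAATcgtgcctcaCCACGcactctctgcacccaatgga
Pdia6, chr12:17266471-17266529, plus strand, did not pass: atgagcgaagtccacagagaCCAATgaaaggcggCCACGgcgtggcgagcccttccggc
Syvn1, chr19:6046512-6046570, plus strand, did not pass: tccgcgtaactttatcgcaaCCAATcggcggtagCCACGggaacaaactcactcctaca
Ero1lb, chr13:12565662-12565720, minus strand, lower: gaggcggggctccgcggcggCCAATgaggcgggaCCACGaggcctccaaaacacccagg

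Among these 9 genes 4 rose, 1 fell and 4 did not pass, and their median fold was 1.05. The 21 tested members whose promoter lacked the element had a median fold of 1.09, with 11 higher, 3 lower and 7 that did not pass. Members that rose, fell and did not pass were found both with and without the element. The remaining member with it was Derl3, which had too few reads to be tested.

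Herpud1, the member of the degradation class that fell most, has a different arrangement. Its promoter held 1 C/EBP-ATF element, TGATGCAA read on the opposite strand, from 112 to 105 bases before the start. No other member with a listed promoter had one, so the share was 1 of 31 (3.23%), against 279 of 27025 genes (1.03%). This element is the kind bound by ATF4 with C/EBP partners. It also held the shorter ER stress response element II, ATTGG, then any base, then CCACG, 52 to 42 bases before the start, a search added after the data were seen. Dnajb11 was the other searched member with element II, 8 to 18 bases after its start. That made 2 of 31 members (6.45%), against 12 of all genes (0.0444%). The window of Herpud1 is printed on the gene's strand, 151 bases, with both elements in capitals.
Herpud1, chr8:94386277-94386427, plus strand, lower with STM2457: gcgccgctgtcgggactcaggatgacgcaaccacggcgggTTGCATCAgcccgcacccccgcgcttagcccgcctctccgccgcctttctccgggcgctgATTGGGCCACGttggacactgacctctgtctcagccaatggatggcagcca
The UPR element TGACGTGG, whose last 5 letters are CCACG on the other strand, was in promoters of 193 genes in all (0.714%). It was in 1 of the 3 listed promoters of Txndc5 and 1 of the 2 of Txndc11, both of which rose. Which start these cells use was not examined.

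**Figure D2:**
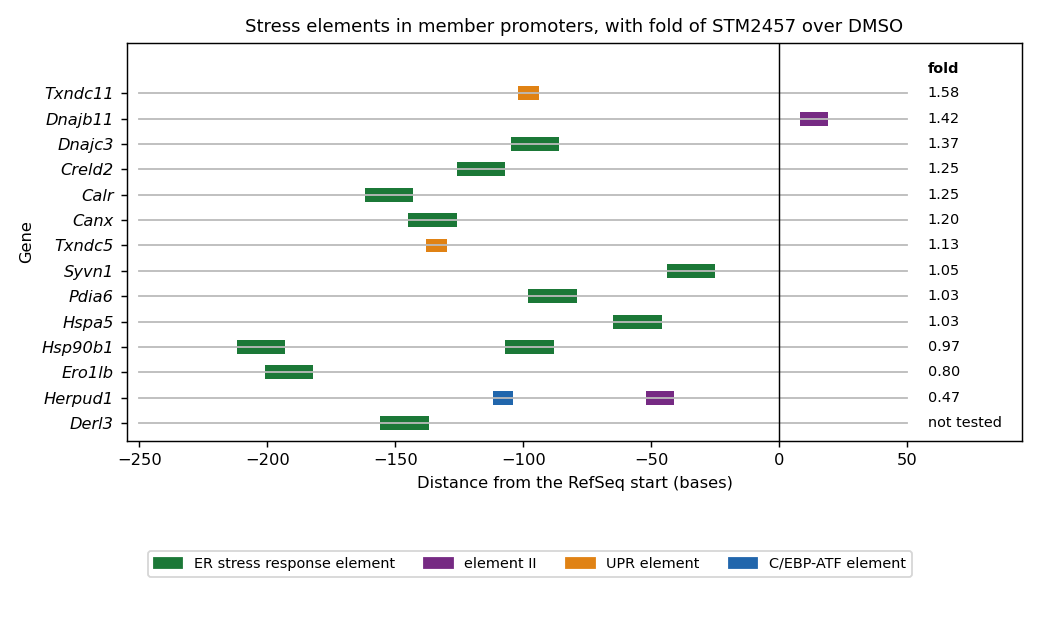
Positions of stress elements (coloured boxes) in the 300-base promoters of the 14 members that hold at least 1, against distance from the RefSeq start in bases (x axis), with genes ordered by fold (right). Where a gene has several listed promoters, their elements are drawn on 1 line. Genes with the same green box range from Dnajc3 at 1.37-fold to Ero1lb at 0.80-fold, and the blue box is present in Herpud1 alone.

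The genes of BiP and GRP94, Hspa5 and Hsp90b1, did not pass, whereas most of the listed genes for cofactors of BiP rose. Hspa5 had 13472, 13399 and 12748 normalised reads with STM2457, against 13603, 12037 and 13004 with DMSO. Its groups overlapped, and the fold was 1.03 with a 95% interval of 0.969 to 1.09 (limma adjusted p = 0.46 on the deposited values). Hsp90b1, the ER member of the Hsp90 family, had 13269, 12919 and 13044 normalised reads with STM2457, against 14198, 12814 and 13531 with DMSO. Those groups overlapped too, at a fold of 0.968 (0.918 to 1.02), but the call depended on the setting. Hsp90b1 was called lower after upper-quartile centring (log2 difference -0.07, adjusted p = 0.011), after median centring (-0.06, adjusted p = 0.029) and without DMSO library 2 (-0.05, adjusted p = 0.045). The difference of Hspa5 was below 0 in the same 3 settings without passing.

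Most genes for cofactors of BiP moved further. Hyou1, the large Hsp70-type protein that exchanges nucleotide on BiP, had 3530.1, 3579 and 3442 normalised reads with STM2457, against 2546, 2495 and 2519 with DMSO. The lowest STM2457 library stood well above the highest DMSO library, and the fold was 1.40 (95% interval 1.32 to 1.47), with a difference of 0.28 in deposited log2 units (SE 0.02, limma adjusted p = 1.04e-10). Dnajb11, the J-domain cochaperone ERdj3 that hands unfolded chains to BiP, had 2207, 2203 and 2082 normalised reads with STM2457, against 1580.4, 1464 and 1519 with DMSO. Its groups were also apart, at 1.42-fold (1.34 to 1.51, adjusted p = 4.09e-10). Dnajc3, the cochaperone P58IPK, had 1468, 1532.5 and 1508 normalised reads with STM2457, against 1143, 1072 and 1067 with DMSO. This was 1.37-fold (1.29 to 1.46, adjusted p = 5.37e-09), with no overlap. Manf, a small secreted ER protein that binds BiP, averaged 3499 ± 160 normalised reads with STM2457 and 2673 ± 86.1 with DMSO (SD, n = 3 each), a fold of 1.31 (1.23 to 1.39).

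Sdf2l1, a partner of ERdj3 in the BiP complex, rose 1.28-fold (1.19 to 1.38). Dnajb9, the cochaperone ERdj4, was at 499 ± 4.51 normalised reads with STM2457 and 441 ± 23.4 with DMSO (SD, n = 3 each), a fold of 1.13 (adjusted p = 0.017). That call was lost under both centrings (adjusted p = 0.17 and 0.12) and without STM2457 library 1 or 2 (both 0.052), DMSO library 1 (0.057) or DMSO library 3 (0.061). The remaining 2 cofactors did not pass. Dnajc10, the reductase ERdj5, was at 1.03-fold (0.976 to 1.09) with its 3 STM2457 libraries just above the DMSO ones. Sil1, an exchange factor of BiP, was at 0.966-fold (0.873 to 1.07).

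The level of Hspa5 was also set against those of Hyou1 and Dnajb11, the cofactor genes with the largest folds. Per kb of exon, Hspa5 reads were 6.52, 6.40 and 6.33 times those of Hyou1 in STM2457 libraries, against 9.135, 8.25 and 8.82 times in DMSO libraries. The ratio to Dnajb11 was 4.67, 4.65 and 4.69 with STM2457, against 6.59, 6.29 and 6.55 with DMSO. Neither ratio overlapped between the groups, and since Hspa5 did not pass, these ratios mainly restate the rises of Hyou1 and Dnajb11. The ratio of Hspa5 to Hsp90b1 was 0.932 to 0.989 with STM2457 and 0.896 to 0.916 with DMSO, and it did not overlap either, with the higher values in STM2457 libraries. That difference was small and neither gene passed. How often ratios of other gene pairs separate in this way was not examined.

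Most disulfide isomerase genes were called higher, while both oxidase genes, whose products recharge them, fell. Pdia6 did not pass, and P4hb lost its call under both centrings. Ero1l, which encodes ERO1-alpha, had 9174, 7674 and 8842 normalised reads with STM2457, against 21305, 20387 and 23557 with DMSO. The highest STM2457 library was far below the lowest DMSO library. The fold was 0.393 (95% interval 0.343 to 0.451), and the deposited log2 values fell by 0.80 (SE 0.04, limma adjusted p = 6.76e-07). Of the 12618 tested genes 145 had a smaller fold. Ero1lb, the paralogue ERO1-beta, was far less abundant at 156, 160 and 180.3 normalised reads with STM2457, against 208, 205.5 and 202 with DMSO. It too fell without overlap, to 0.805 of the DMSO level (0.703 to 0.921, adjusted p = 0.0053). In the GENCODE M21 annotation of GRCm38, Ero1l occupies chr14:45283087-45318771 on the minus strand and Ero1lb chr13:12565874-12611396 on the plus strand.

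On the isomerase side, Txndc11, a thioredoxin-domain protein of the ER membrane, rose most of all members. It had 1180, 1178 and 1167 normalised reads with STM2457, against 801, 673 and 765 with DMSO. The fold was 1.58 (1.46 to 1.71, limma adjusted p = 3.81e-10), and 350 tested genes had a larger one. Pdia3, the isomerase ERp57 that works with calnexin and calreticulin, had 20927, 20584 and 21051 normalised reads with STM2457, against 17290, 16671 and 16928 with DMSO, which was 1.23-fold (1.17 to 1.29). The groups of both genes were well apart. Pdia4 (ERp72) rose 1.26-fold (1.18 to 1.34), Erp44, which holds ERO1 in the early secretory pathway by thiol exchange, 1.25-fold (1.18 to 1.33), and the ER stress protein gene Creld2 1.25-fold (1.16 to 1.35). Pdia5 rose 1.19-fold (1.11 to 1.27) and Txndc5 (ERp46) 1.13-fold (1.07 to 1.19).

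P4hb, the archetypal protein disulfide isomerase, was the member of highest level per kb in both groups. It had 21613, 21459 and 21906 normalised reads with STM2457, against 20116, 18995 and 20647 with DMSO. Its rise was small, at 1.09-fold (1.03 to 1.14, limma adjusted p = 0.0075), and was not called after upper-quartile centring (adjusted p = 0.145) or median centring (0.13). Pdia6 (P5) did not pass, at 1.03-fold (0.976 to 1.08). Ppib, the prolyl isomerase cyclophilin B, fell to 2272 ± 53.0 normalised reads with STM2457, against 2494 ± 73.7 with DMSO (SD, n = 3 each), which was 0.911 of the DMSO level (0.862 to 0.964, adjusted p = 0.0060).

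The ratio of 1 isomerase transcript, P4hb, to the oxidase transcript Ero1l did not overlap between the groups. Per kb of exon, P4hb reads were 4.35, 5.17 and 4.58 times those of Ero1l in STM2457 libraries, against 1.74, 1.72 and 1.62 times in DMSO libraries. Since P4hb changed little, this ratio mainly restates the fall of Ero1l. Ero1l made up 5.79%, 4.94% and 5.63% of all folding reads with STM2457, against 13.6%, 14.0% and 15.1% with DMSO. Among the 36 members ordered by level per kb, Ero1l was number 10 with STM2457 and number 4 with DMSO. The folding genes together took 0.891%, 0.872% and 0.887% of reads in genes with STM2457, against 0.885%, 0.830% and 0.879% with DMSO, and these overlapped. Without Ero1l they took 0.839%, 0.829% and 0.837% with STM2457, against 0.765%, 0.714% and 0.7465% with DMSO, and these did not. Ero1l was left out because it fell in these same data, and leaving it out raises the STM2457 share relative to DMSO. Whether the separation depends on scaling was not tested.

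**Figure D3:**
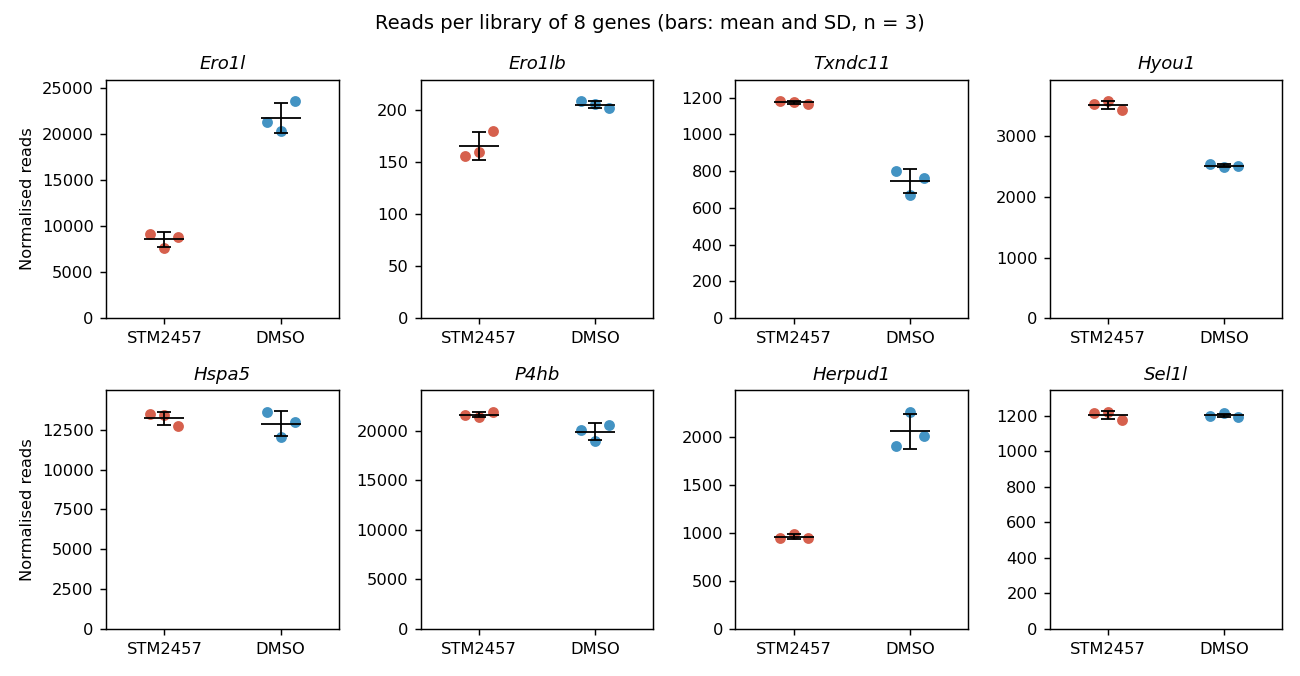
Normalised reads (y axis, from 0) of 8 members in each library, with bars for the mean and SD (n = 3). STM2457 libraries are clearly lower for Ero1l and Herpud1 and clearly higher for Txndc11 and Hyou1, while those of Hspa5 (12748 to 13472, against 12037 to 13603 in DMSO) and Sel1l overlap with DMSO.

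Of the lectin cycle, both lectins rose and the folding sensor did not pass. Calr, the soluble lectin calreticulin, had 18416, 18324 and 18094 normalised reads with STM2457, against 15457, 13608 and 14931 with DMSO, or 1.25-fold (1.18 to 1.32, limma adjusted p = 4.27e-07). Canx, its membrane-bound counterpart calnexin, averaged 9952 ± 129 normalised reads with STM2457 and 8331.5 ± 455 with DMSO (SD, n = 3 each), or 1.20-fold (1.13 to 1.26, adjusted p = 5.39e-06). The groups of both genes were separate. Uggt1, which adds glucose back to unfolded glycoproteins, was at 1.04-fold (0.987 to 1.10), and its groups overlapped.

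Of the degradation genes most did not pass, and Herpud1 changed the most. Herpud1 encodes HERP, a membrane protein of the HRD1 complex, and had 945, 991 and 941 normalised reads with STM2457, against 1902, 2254 and 2003 with DMSO. No STM2457 library came near the lowest DMSO library. The fold was 0.468 (95% interval 0.432 to 0.507), and the deposited log2 values fell by 0.61 (SE 0.03, limma adjusted p = 1.37e-12). Of the tested genes 280 had a smaller fold. The gene occupies chr8:94386438-94395377 on the plus strand, downstream of the promoter window printed for it.

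The core of the same complex did not pass. Sel1l, the adaptor that receives substrates, had 1218, 1221 and 1178 normalised reads with STM2457, against 1197, 1214 and 1196 with DMSO, a fold of 1.003 (95% interval 0.942 to 1.07, limma adjusted p = 0.95). Syvn1, the ubiquitin ligase HRD1, had 1335, 1449 and 1408 normalised reads with STM2457, against 1286, 1360.1 and 1352 with DMSO, a fold of 1.05 (0.983 to 1.12). Both sets overlapped. Sel1l reads per kb were 0.352, 0.336 and 0.341 times those of Herpud1 with STM2457, against 0.172, 0.147 and 0.163 times with DMSO.

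The mannose-trimming and retrotranslocation genes did not pass either. Edem1, Edem2 and Edem3, whose products mark misfolded glycoproteins by removing mannose, were at 1.03-fold (0.968 to 1.10), 1.01-fold (0.939 to 1.08) and 1.07-fold (0.994 to 1.16). Edem3 was called higher when DMSO library 1 was left out (log2 difference 0.09, adjusted p = 0.0079). The derlin genes, which encode membrane proteins of the exit route to the cytosol, were at 1.04-fold (0.978 to 1.11) for Derl1 and 0.986-fold (0.914 to 1.06) for Derl2. Derl3 was barely detected, with 8 reads in all over the STM2457 libraries and 3 over the DMSO libraries, and no fold is given.

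The 2 lectins that deliver trimmed glycoproteins to the ligase moved in opposite directions. Os9 had 1981, 1898 and 1909 normalised reads with STM2457, against 1628.5, 1689 and 1788 with DMSO, and rose 1.13-fold (1.07 to 1.21, limma adjusted p = 8.90e-04). Erlec1, also called XTP3-B, had 546, 555 and 622 normalised reads with STM2457, against 687, 727 and 687 with DMSO, and fell to 0.819 of the DMSO level (0.753 to 0.891, adjusted p = 2.05e-04). Neither gene overlapped between groups. Degradation genes together took 0.0681% to 0.0683% of reads in genes with STM2457 and 0.0722% to 0.0739% with DMSO. Without Herpud1 the order turned round, to 0.0627% to 0.0630% with STM2457 and 0.0610% to 0.0614% with DMSO. This difference was small and most of the genes in it did not pass. The signs of Sel1l, Edem1 and Edem2 changed under both centrings, so the order may depend on scaling.

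**Figure D4:**
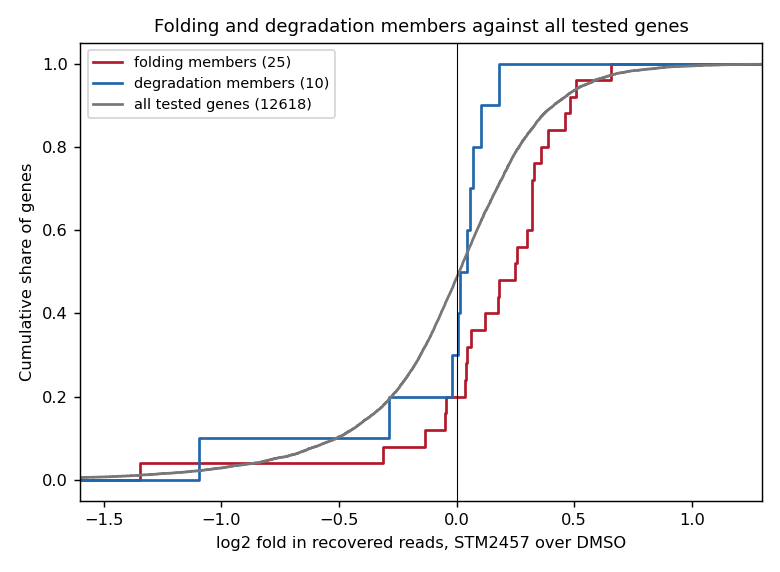
Cumulative share of genes (y axis) against log2 fold in recovered reads, STM2457 over DMSO (x axis), for the 25 folding members, the 10 tested degradation members and all 12618 tested genes. The folding curve lies right of the all-gene curve between 0 and 0.5, and the degradation curve climbs steeply at 0, where 7 of its 10 genes changed by less than 10%, against 35.9% of all tested genes.

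Libraries within a group also differed. Among the DMSO libraries, library 2 was the lowest for 19 of the 25 folding genes (median deviation of -0.04 log2 from the other 2) and library 1 the highest for 18. The degradation genes showed no such order, with library 2 lowest for 4 of 10 and library 1 highest for 4. This order was not counted over all tested genes, so whether it is particular to the folding genes cannot be told. In fits that left out 1 library, 15 or 16 folding genes were called higher. Every member called higher or lower, other than Dnajb9 and P4hb, kept its call in each alternative that was run.

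**Figure D5:**
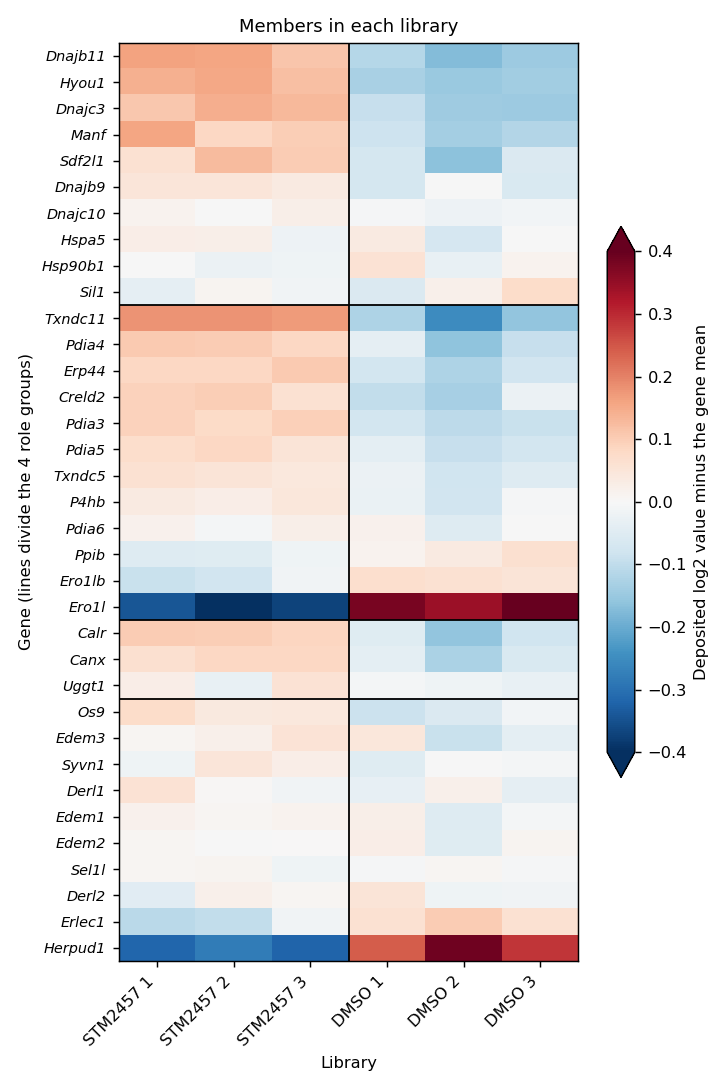
Deposited log2 value of each tested member minus its mean over the 6 libraries (colour; dark red and dark blue at or past 0.4 in size), with STM2457 libraries on the left, DMSO libraries on the right and black lines between the 4 role groups. DMSO 2 is the bluest column for many folding genes that rose, Ero1l and Herpud1 are blue in all STM2457 libraries, and most ERAD rows are near white.

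The levels of the members spanned a wide range. Per kb of exon, P4hb led with 7571 normalised reads with STM2457 and 6962 with DMSO, followed by Pdia3 (6643 with STM2457 and 5404 with DMSO) and Calr (6347 with STM2457 and 5092 with DMSO). Hspa5 stood at 3123 with STM2457 and 3046 with DMSO. At the low end were Txndc11 (133 with STM2457 and 84.5 with DMSO), Ero1lb (24.9 with STM2457 and 30.9 with DMSO) and Derl3 (1.33 with STM2457 and 0.503 with DMSO). Herpud1 dropped to number 22 in the order with STM2457, against number 11 with DMSO. No ERAD gene stood among the 10 highest with either treatment.

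The sensors and transcription factors that control these genes were called in both directions, with 6 higher, 6 lower and 5 not called of 17 tested (median fold 0.974), beside 30.7% higher and 25.7% lower over all tested genes. Under both centrings 5 were higher and 8 lower, and without STM2457 library 1 there were 3 lower. Atf6, the membrane-bound factor that is cut in the Golgi, had 2631, 2591 and 2732 normalised reads with STM2457, against 3612, 4001 and 3765 with DMSO, and fell to 0.700 of the DMSO level (limma adjusted p = 1.82e-10). Its relative Atf6b rose 1.18-fold. Xbp1, whose messenger is spliced by IRE1, had 2382, 2346 and 2364 normalised reads with STM2457, against 1975, 1851.5 and 2063 with DMSO, and rose 1.21-fold (adjusted p = 7.55e-06). Spliced and unspliced Xbp1 were not counted apart. Ern1, the IRE1 gene, was at 0.974-fold and did not pass (adjusted p = 0.68), and Creb3l1 had 2 reads in 1 DMSO library and none elsewhere.

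On the PERK side, Atf4 had 10116, 10017 and 9552 normalised reads with STM2457, against 13900, 16075 and 15024 with DMSO, and fell to 0.661 of the DMSO level (limma adjusted p = 4.62e-10). Ddit3, which encodes the ATF4 target CHOP, averaged 352 ± 30.7 normalised reads with STM2457 and 835 ± 228 with DMSO (SD, n = 3 each), or 0.431 of the DMSO level (adjusted p = 0.015). Ppp1r15a, a phosphatase subunit that ends the PERK signal, was at 0.667 (adjusted p = 0.040). The calls of Ddit3 and Ppp1r15a were lost whenever any 1 STM2457 library was left out (adjusted p = 0.0504 to 0.0538 for Ddit3 and 0.0568 to 0.0998 for Ppp1r15a). That of Ppp1r15a was also lost without DMSO library 3 (0.0902). For both genes all 3 STM2457 libraries lay below all 3 DMSO libraries, of which library 2 was the highest. Without DMSO library 2 the limma adjusted p was 2.48e-10 for Ddit3 and 7.87e-06 for Ppp1r15a. Without DMSO library 1 it was 0.0030 and 0.0013. Eif2ak3, the PERK gene, was at 1.12-fold (adjusted p = 0.033), a call lost under both centrings (0.27 and 0.20), with no filter on low values (0.066) and without STM2457 library 1, STM2457 library 2 or DMSO library 3 (0.079 to 0.12).

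Creb3, a factor related to ATF6, rose 1.41-fold. The subunits of NF-Y, which binds CCAAT in the printed windows, divided into Nfya (1.19-fold) and Nfyc (1.15-fold), which rose, and Nfyb (0.851-fold), which fell. Mbtps1, the protease that cuts ATF6, was called lower at 0.930-fold (limma adjusted p = 0.020), though not without STM2457 library 1 (0.11) or DMSO library 2 (0.052). Yy1 (1.07-fold), Mbtps2 (0.946-fold), Creb3l2 (0.967-fold) and Ppp1r15b (1.01-fold) did not pass. Mbtps2 and Creb3l2 were called lower under both centrings, and Yy1 was called higher without DMSO library 1 (0.031) or library 3 (0.042).

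Further genes of the same compartments were counted in the same fit. Of 46 tested ER folding genes outside the members, 19 rose (41.3%) and 11 fell (23.9%), with a median fold of 1.045. Under both centrings 13 rose and 12 fell. Those of smallest adjusted p were the ER peroxidase gene Gpx8 (1.50-fold), Vkorc1l1 (1.33-fold), the collagen chaperone gene Fkbp10 (1.22-fold) and the collagen prolyl hydroxylase gene P4ha1, which fell to 0.776 of the DMSO level. Of 45 further ERAD genes 22 rose (48.9%) and 10 fell (22.2%), with a median fold of 1.08. With upper-quartile centring 13 rose and 15 fell. Over all tested genes 30.7% were called higher and 25.7% lower. The larger share of rises among folding than among degradation members was not seen in these wider lists, a description with no test. Among the further ERAD genes of smallest adjusted p were Selenos, a selenoprotein of the ERAD complex (1.60-fold), and the ubiquitin-conjugating enzyme genes Ube2j2 (1.30-fold) and Ube2j1 (1.23-fold).

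Libraries were of nearly equal depth, with 17877889 to 17917396 reads in genes with STM2457 and 17671563 to 17679261 with DMSO, and mitochondrial genes took 3.05% to 3.33% with STM2457 and 3.15% to 3.30% with DMSO. Markers of other cells were sparse. Plasma cell markers summed to 1.98 to 5.96 normalised reads with STM2457 and 5.01 to 10.1 with DMSO (4 genes, Tnfrsf17 without a read), and endothelial markers to 3.96 to 8.94 with STM2457 and 4.96 to 5.02 with DMSO (4 genes). Leukocyte markers summed to 98.1 to 122 with STM2457 and 100.3 to 114.5 with DMSO (7 genes, mainly Cd68, with Cd3e and Adgre1 at 0). The epithelial markers of the labelled carcinoma were close to absent, with Epcam and Cdh1 at 0 and all 6 summing to 3.97 to 12.9 with STM2457 and 13.1 to 17.0 with DMSO. Of 6 alveolar type II markers Abca3 made up nearly all of 523 to 576 normalised reads with STM2457 and 565 to 640 with DMSO, and Nkx2-1 and Sftpa1 were at 0. The 5 fibroblast markers summed to 214 to 227 with STM2457 and 301 to 336.5 with DMSO, lower in all STM2457 libraries. Col1a2 averaged 62.5 with STM2457 and 135 with DMSO and Lum 9.27 with STM2457 and 29.3 with DMSO, whereas Pdgfra averaged 112 with STM2457 and 113 with DMSO. The part of these markers in the results was not tested.

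Some members share sequence with other genes. Exons of 11 members overlap exons on the other strand, and the strand setting of the counts was not given in the sources used here. Exon overlap is largest for Ppib, with 825 bases shared with Snx22, a gene with a mean of 4 reads. For Manf, 146 bases overlap Dcaf1 (mean of 1590 reads), for Syvn1, 91 bases overlap Mrpl49 (1530 reads), and for Derl2, 231 bases overlap Mis12 (1010 reads), so reads of these genes may be shared with their partners. Ero1l, Herpud1, Hyou1 and Dnajb11 have no such overlap. Near-identical pseudogenes of Derl1, Dnajb9 and Ero1lb had means of at most 0.333 reads. Ero1l and Uggt1 hold short stretches that match many other genes at 95% identity or more, for Ero1l of at most 168 bases, among them Osbpl9 (mean of 2119 reads). Txndc11 has such matches to Mapk12 (mean of 952 reads) and Sdhaf2 (842.5 reads), and 75 of its exon bases overlap Snn on the other strand (210 reads).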

How the data were processed

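RNA from LLC cells, 3 STM2457 and 3 DMSO samples grouped by the treatment in their labels, was extracted with TRIzol and made into SMARTER mRNA-Seq libraries, per the labels' protocols. HISAT2 2.2.1, featureCounts 2.0.1, FastQC 0.11.9 and DESeq2 are named, with the GRCm38 build, per the submitters' processing notes. Annotation, settings and strand use were not given in the sources used here.

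Log2 values were deposited, 1 per gene and library, for 55367 genes, of which 31229 have no read. Their values follow a regularised log2 transform (inferred here, since no label names it), which shrinks each gene towards its mean (prior SD 0.185). It keeps 60.0% of a log2 difference in the most abundant genes and less in rarer ones. Its equations were inverted to recover reads. Below a mean of 500 reads (17546 genes) 98.5% of values came out whole to within 0.05 reads. The share was 45.2% from 500 to 2000 reads and 14.8% above, where most members lie and wholeness is no check. Normalised reads are recovered reads divided by a size factor (0.995 to 1.01).

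The 12618 genes whose deposited values averaged 3.32 or more (10 reads) were tested with limma 3.58.1 in R 4.3.3 (trend and robust priors, statmod 1.5.0), with the group as the only term, no pseudocount, and Benjamini-Hochberg adjustment over all tested genes at 0.05. Folds and their 95% intervals come from limma-voom on recovered reads. The fits and the inversion were run on simulated data made with the same inferred transform. Such data check the computation only, and cannot show whether the inferred transform is the one that was used. A count of 0 allows up to 3 reads, for counting error only. Exon lengths and positions come from GENCODE M21, copies from BLAST+ 2.17.0 (at least 95% identity over 100 bases) and promoters from RefSeq.

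The members and lists were chosen with earlier results of these data known. All members are named. From each other list the text names the 4 genes of smallest adjusted p among those that passed, and all sensors and transcription factors. A gene of the further ERAD list that this rule names is not reported here. Of the list symbols 231 were matched directly, 6 by synonym and 1 was not matched. Alternatives were other centrings, filters and priors, limma-voom, a replicate block, leaving out each library, and looser or narrower motif searches.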

Additional observations from a re-analysis of the deposited data

How the results depend on the processing

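Of the comparisons of members with alternatives, 422 kept direction and call, 8 lost a call (Dnajb9 and P4hb), 4 gained one (Hsp90b1 and Edem3) and 21 changed sign, none of the last a called gene. With upper-quartile centring the log2 differences that changed sign were Hspa5 -0.016, Dnajc10 -0.013, Pdia6 -0.014, Uggt1 -0.0016, Sel1l -0.036, Edem1 -0.014, Edem2 -0.031, Derl1 -0.0047 and Ppp1r15b -0.033. With median centring they were Hspa5 -0.010, Dnajc10 -0.0078, Pdia6 -0.0088, Sel1l -0.030, Edem1 -0.0084, Edem2 -0.026 and Ppp1r15b -0.028. Leaving out 1 library changed the sign of Sel1l (-0.0031 to 0.011), Derl2 (-0.024 to 0.011), Hspa5 (-0.0064 to 0.046), Edem2 (-0.016 to 0.022), Sil1 (-0.059 to 0.0062), Ppp1r15b (-0.0073 to 0.024) and Ern1 (-0.053 to 0.034), given as their ranges over the 6 fits.

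Leaving out each library gave 16 to 17 members higher and 5 to 6 lower, with 3402 to 3797 and 2704 to 3152 of all genes. Degradation genes called higher ranged from 1 to 2, sensors and transcription factors called lower from 3 to 6, and KDEL receptor and COPII genes called higher from 5 to 10. Those last were 3 with upper-quartile centring, where further ERAD genes called higher were 13, and COPII genes called lower were 1 at a mean of at least 100 reads. The stress element with up to 1 mismatch was in 16 members, against 466 of all genes (1.72%). The causes of these changes were not tested.

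The replicate number as a block left 17 members higher and 5 lower (3864 and 3226 of all genes) and changed no member's call, and of the other named genes Ppp1r15a lost its call (-0.31, adjusted p = 0.051). Deviations from the group mean correlated at 0.051, 0.018 and 0.016 between libraries of the same number over 9738 genes. Between libraries of different number they correlated at -0.044 to 0.025. No strong shared effect of the number was seen. Whether same-numbered samples were set up together cannot be told from these values.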

Other observations

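Genes that bring proteins into the ER and attach their sugar chains were counted in the same fit. Of 36 tested translocation and N-glycosylation genes 19 rose and 4 fell, with a median fold of 1.12, beside 30.7% of all tested genes called higher and 25.7% called lower, and the difference from all genes was not tested. Stt3a, a catalytic subunit of the oligosaccharyltransferase, averaged 3521 ± 33.4 normalised reads with STM2457 and 2534 ± 70.4 with DMSO (SD, n = 3 each), or 1.39-fold (limma adjusted p = 1.64e-10). Rpn1, a further subunit of that enzyme, rose 1.35-fold, Sec61a1, the pore of the translocon, 1.38-fold, and Ssr2, a translocon-associated protein, 1.22-fold.

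Genes of ER export and retrieval were called in both directions. Of 17 KDEL receptor and COPII genes 6 rose (35.3%) and 3 fell (17.65%), with a median fold of 1.05. Over all tested genes 30.7% were called higher and 25.7% lower, and the difference from all genes was not tested. Without DMSO library 1 there were 10 KDEL receptor and COPII genes that rose. With upper-quartile centring 3 rose and 4 fell. The coat gene Sec23a fell to 0.809 of the DMSO level, while the GTPase gene Sar1a rose 1.17-fold and the cargo adaptor gene Sec24a 1.21-fold. Sec31b, a gene of low level, fell to 7.28 ± 1.52 normalised reads with STM2457, against 22.3 ± 2.40 with DMSO (SD, n = 3 each). Its STM2457 mean was below the 10 reads that the average over all libraries had to reach. Sec31b was thus tested only through its DMSO level, and it was outside the fit limited to a mean of at least 100 reads.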
